A study of Drosophila melanogaster with 6 samples.

Results

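Mitochondrial ribosomal protein genes encode the protein subunits of the ribosome inside mitochondria. They were taken as every annotated gene whose symbol is mRpL (named for the large subunit) or mRpS (named for the small subunit) followed by a digit. The rule found 73 genes among 17673 genes on 6 chromosome arms, all 73 protein-coding, 47 with mRpL and 26 with mRpS symbols. The split goes by symbol and was not checked against the subunit that holds each protein. They lie scattered, 12 on 2L, 12 on 2R, 17 on 3L, 21 on 3R, 11 on X and 0 on chromosome 4. *tko* and *bonsai*, which encode mitochondrial ribosomal proteins under other symbols, are not found by the rule and were kept in a list of other genes of mitochondrial gene expression.

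The mitochondrial ribosome translates the few messages of the mitochondrial genome, which encode core subunits of the respiratory chain and of the ATP synthase. All of its proteins are encoded in the nucleus, made in the cytosol and imported, while its ribosomal RNAs are transcribed from mitochondrial DNA. Topologically associating domains (TADs) are stretches of chromosome that contact themselves more than their surroundings, and in *Drosophila* their borders are known to lie often at gene-dense, broadly active chromatin.

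Hi-C, which maps chromosome contacts by ligation and sequencing, had been applied to eye discs and antennal discs, the larval epithelia that form the adult eye and antenna. Both tissues came from third-instar larvae of genotype yw;+;+, and they were separated by hand. Each of the 3 replicates per tissue pooled 125 discs, so a library averages over many animals and all cell types of the disc. The TAD lists analysed came from all 3 eye replicates (numbered 1 to 3) and from the antennal replicates numbered 2 and 3, with 1 further list per tissue from pooled replicates.

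The lists held 1188, 1142 and 1116 TADs in the eye libraries and 1186 and 1217 in the antennal ones. Their coordinates, on the dm6 genome, were multiples of 5 kb, taken as 1 bin. Read depth is unknown, and the lists hold no expression values by which the tissue labels could be checked. Eye disc replicate 1 and antennal disc replicate 3 had no TADs on chromosome 4, where no member lies. Where a call on a named member changes without these 2 libraries, the value without them is given.

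Each gene was given a distance in kb, for which the distances from its 2 ends to the nearest TAD border were averaged. It was compared over the 71 members, of 17348 genes in all, that lie between the first and the last border of their arm in every library. *mRpL10* (2L:203779-204782), for the protein that anchors the ribosomal stalk in bacteria, lay outside this range. Its distances were 90.7, 49.3 and 50.7 kb in eye discs and 20.7 and 40.7 kb in antennal discs. The other gene outside it was *mRpS5* (3L:24537236-24543534), for a protein of the messenger entry side of the small subunit in bacteria. It lay 575, 42.1 and 9.35 kb from a border in eye discs and 15.4 and 11.9 kb in antennal discs. Both values of 575 and 90.7 kb came from eye disc replicate 1.

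Members lay moderately closer to TAD borders than protein-coding genes at large. Their median distance was 20.4, 17.7 and 20.1 kb in the 3 eye libraries, a mean of 19.4 ± 1.48 kb (SD, n = 3). In antennal libraries it was 16.8 and 16.4 kb, a mean of 16.6 ± 0.248 kb (SD, n = 2). Protein-coding genes had medians of 20.6, 23.7 and 25.5 kb in eye discs and 22.6 and 20.9 kb in antennal discs. The members were thus nearer in each library, but in eye disc replicate 1 the values of both sets were almost equal. The pooled lists gave 17.7 kb for eye and 17.9 kb for antennal discs.

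With each gene averaged within and then over tissues, the median was 20.1 kb for the 71 members and 24.9 kb for protein-coding genes. The members' quartiles were 10.9 and 33.2 kb, and 41 of 71 (57.7%) lay below the protein-coding median. The members are short, with a median length of 0.909 kb against 2.161 kb for protein-coding genes. Measured from the nearer gene end, the medians differed by -2.21 kb rather than by -4.71 kb. No test was made, because the genes were chosen with results of these data known.

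Genes for the cytosolic ribosome, which makes all other proteins, lay nearer still. The 88 of 91 such genes inside the calls had a median of 15.7 kb, and 63 of 88 were below the protein-coding median. Their medians per tissue were 14.1 ± 2.17 kb in eye discs (SD, n = 3) and 11.7 ± 1.01 kb in antennal discs (SD, n = 2). In every library the cytosolic median was below the mitochondrial one, and no test of that difference was made.

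**Figure D1:**
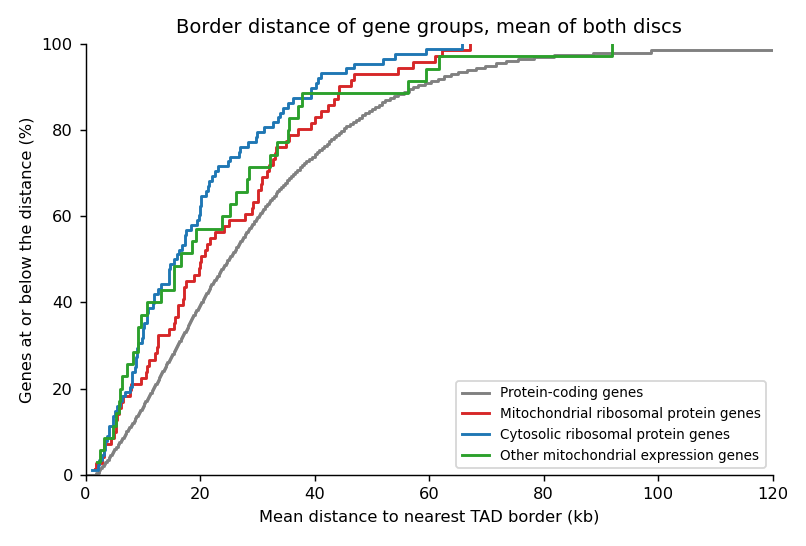
Cumulative percentage of genes (y axis) by distance to the nearest TAD border in kb (x axis, shown up to 120 kb), with 1 line per gene set and each gene averaged within and then over tissues. The line of the 71 mitochondrial ribosomal protein genes, median 20.1 kb, runs mostly between that of cytosolic ribosomal protein genes, median 15.7 kb, and that of protein-coding genes, median 24.9 kb, and the other genes of mitochondrial gene expression have a median of 16.7 kb.

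Among the members, genes with mRpL symbols lay closer to borders than genes with mRpS symbols. The median was 19.9 kb over 46 mRpL genes and 30.6 kb over 25 mRpS genes. Below the protein-coding median were 29 of 46 and 12 of 25. Per library the mRpS medians were 15.9, 34.9 and 27.6 kb in eye discs and 18.5 and 17.2 kb in antennal discs. Those of the mRpL genes were 20.4, 16.0 and 18.2 kb and 16.0 and 16.3 kb. Eye disc replicate 1 had the opposite order, so the difference did not hold in every library.

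Symbol numbers separate proteins with a bacterial counterpart, which mostly have low numbers, from those that were added in mitochondria. The 40 members numbered up to 36 in mRpL and 21 in mRpS symbols had a median of 23.8 kb, and the other 31 had 18.9 kb. By arm, the medians of these averaged distances were 15.6 kb on X (24.6 kb for protein-coding genes), 17.1 kb on 3R (23.7 kb), 20.8 kb on 2L (26.1 kb), 26.7 kb on 2R (25.6 kb) and 30.1 kb on 3L (24.1 kb). The members' median was the lower one in all 5 libraries on 3R and in 4 of 5 on X and 2L, with eye disc replicate 1 as the exception. On 2R it was the higher one in 4 of 5, again except in eye disc replicate 1. On 3L the order turned with the summary, since the members' median was lower in 4 of 5 single libraries, with 19.5, 19.0 and 22.7 kb in eye discs and 22.2 and 17.7 kb in antennal discs, against 20.9, 23.0 and 25.3 kb and 21.9 and 19.6 kb.

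Members lie in somewhat more crowded stretches of the genome than protein-coding genes at large. Of the 73, 43 (58.9%) overlapped another gene, against 47.3% of protein-coding genes, and 72 (98.6%) had another gene within 1 kb, against 90.7%. The exception was *mRpS5*. The median member had 10 protein-coding genes within 20 kb, and the median protein-coding gene 9. Among the other genes of mitochondrial gene expression, 65.7% overlapped a gene, 97.1% had one within 1 kb and the median was 11. For the cytosolic set the values were 52.7%, 95.6% and 9. Where 11 to 41 protein-coding neighbours lay within 20 kb, the 34 members (23.3 kb) and the protein-coding genes (22.6 kb) were about equally far from borders. Where 0 to 7 did, the 17 members had a median of 14.6 kb and the protein-coding genes 29.7 kb. With 8 to 10 neighbours, the medians were 20.1 kb for 20 members and 22.2 kb.

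A member was counted as at a border if its nearer end was at most 5 kb away. In eye discs 8, 16 and 12 of the 71 were, or 11.3%, 22.5% and 16.9%, and in antennal discs 18 and 16, or 25.4% and 22.5%. The means were 16.9% ± 5.6 (SD, n = 3) and 23.9% ± 2.0 (SD, n = 2), and both antennal values equalled or exceeded the highest eye value. Over all genes the means were 17.3% ± 1.8 and 18.8% ± 0.4. Eye disc replicate 1 had the lowest share of members, 11.3%, but the highest share over all genes among eye libraries. That share was 19.1%, against 17.2% and 15.6% in eye disc replicates 2 and 3. Exact permutation of 3 against 2 libraries allows no p below 0.2 (two-sided), so that test could not pass 0.05, and no other test was made of these shares.

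Across the 5 libraries, 43 of 71 members (60.6%) were never at a border and 28 (39.4%) were in at least 1, against 34.5% of all genes. In all 5 libraries there were 4 members (5.63%), close to the 6.03% of all genes. Of the rest, 10 were at a border in 1 library, 6 in 2, 4 in 3 and 4 in 4. The cytosolic set had 7 of 88 in all 5. No member was at a border in all eye and no antennal libraries (0.594% of all genes), and 3 were in both antennal and no eye libraries (1.57% of all genes).

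**Figure D2:**
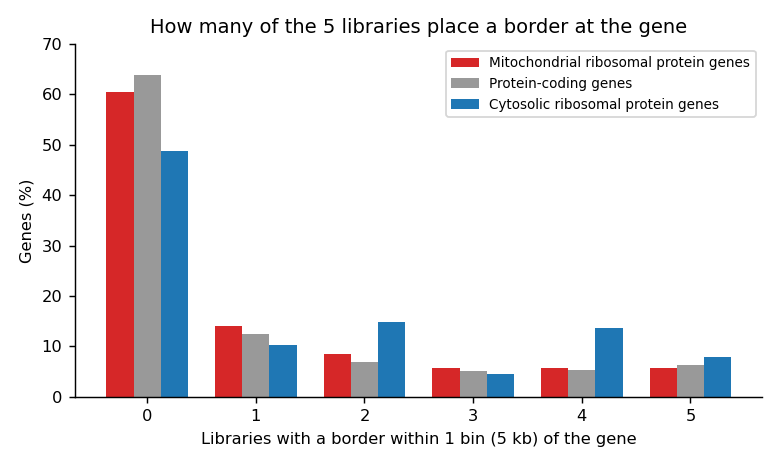
Percentage of genes (y axis) by the number of libraries, 0 to 5, in which the nearer gene end lies at most 5 kb from a TAD border (x axis), with bars for mitochondrial ribosomal protein genes, protein-coding genes and cytosolic ribosomal protein genes. Members at a border in no library made up 60.6% and those in all 5 libraries 5.63%, and both bars are close to those of protein-coding genes.

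The 4 genes at a border in every library encode large subunit proteins. *mRpL54* (2R:21060789-21061587), for a protein without a bacterial counterpart, had the smallest mean distance of all members. It lay 1.19, 1.19 and 3.81 kb from a border in eye discs and 1.19 kb in both antennal libraries. Its border at position 21060000 falls in the neighbouring gene *CG15653*. In eye disc replicate 3 the border was 1 bin to the right, so the gene fell at the right end of the left-hand TAD there and at the left end of the right-hand TAD elsewhere.

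*mRpL14* (X:2343997-2344649) encodes a protein of the face where the subunits meet. Its distances were 0.677, 4.32 and 4.32 kb in eye discs and 0.677 kb in both antennal libraries. The border was at 2345000 in the libraries with the small value, in *CG2841*. In eye disc replicates 2 and 3 and both pooled lists it was at 2340000, inside *Raf*, which encodes the kinase of the Ras pathway. The groups overlapped through eye disc replicate 1.

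*mRpL1* (3R:8301440-8302770), whose protein forms the mobile L1 stalk in bacteria, lay 2.90 kb from the same border in all 5 libraries and both pooled lists. That border, at 8305000, falls in *Sgt1*, for a co-chaperone. The other end of its TAD was not shared, with starts at 8235001, 8235001 and 8030001 in eye discs and 8265001 and 8125001 in antennal discs. The gene thus had a fixed border on its right in TADs of 40 to 275 kb.

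*mRpL19* (3R:8674109-8675196), for another protein of the subunit interface in bacteria, lay 4.65, 0.543 and 0.543 kb from a border in eye discs and 4.65 kb in both antennal libraries. The border was at 8670000 or, in eye disc replicates 2 and 3, at 8675000 inside the gene itself. A shift of 1 bin thus makes up the whole spread.

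*mRpS23* (2L:13834250-13835072) and *mRpL2* (3L:11120847-11122041) complete the 6 members with the smallest mean distance, and each was at a border in 4 libraries. *mRpS23*, for a small subunit protein without a bacterial counterpart, lay 9.66, 0.411 and 0.411 kb from a border in eye discs and 0.411 and 5.34 kb in antennal discs. In eye disc replicates 2 and 3, antennal disc replicate 2 and both pooled lists, the border at 13835000 was inside the gene. The eye disc replicate 1 border at 13825000 was inside *PolG1*, with *PolG2* among the 4 genes in between, and these encode both subunits of the mitochondrial DNA polymerase. *mRpL2*, whose counterpart in bacteria is needed for peptide bond formation, lay 8.56 kb from a border in eye disc replicate 1 and 3.56 kb in the 4 other libraries, with the border in *NaPi-III*. *mRpL22* and *mRpL53* were the other 2 members at a border in 4 libraries, and *mRpL20*, *mRpL27*, *mRpL33* and *mRpS26* were in 3. In each of the 4 members at a border in 4 libraries, eye disc replicate 1 was the exception.

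**Figure D3:**
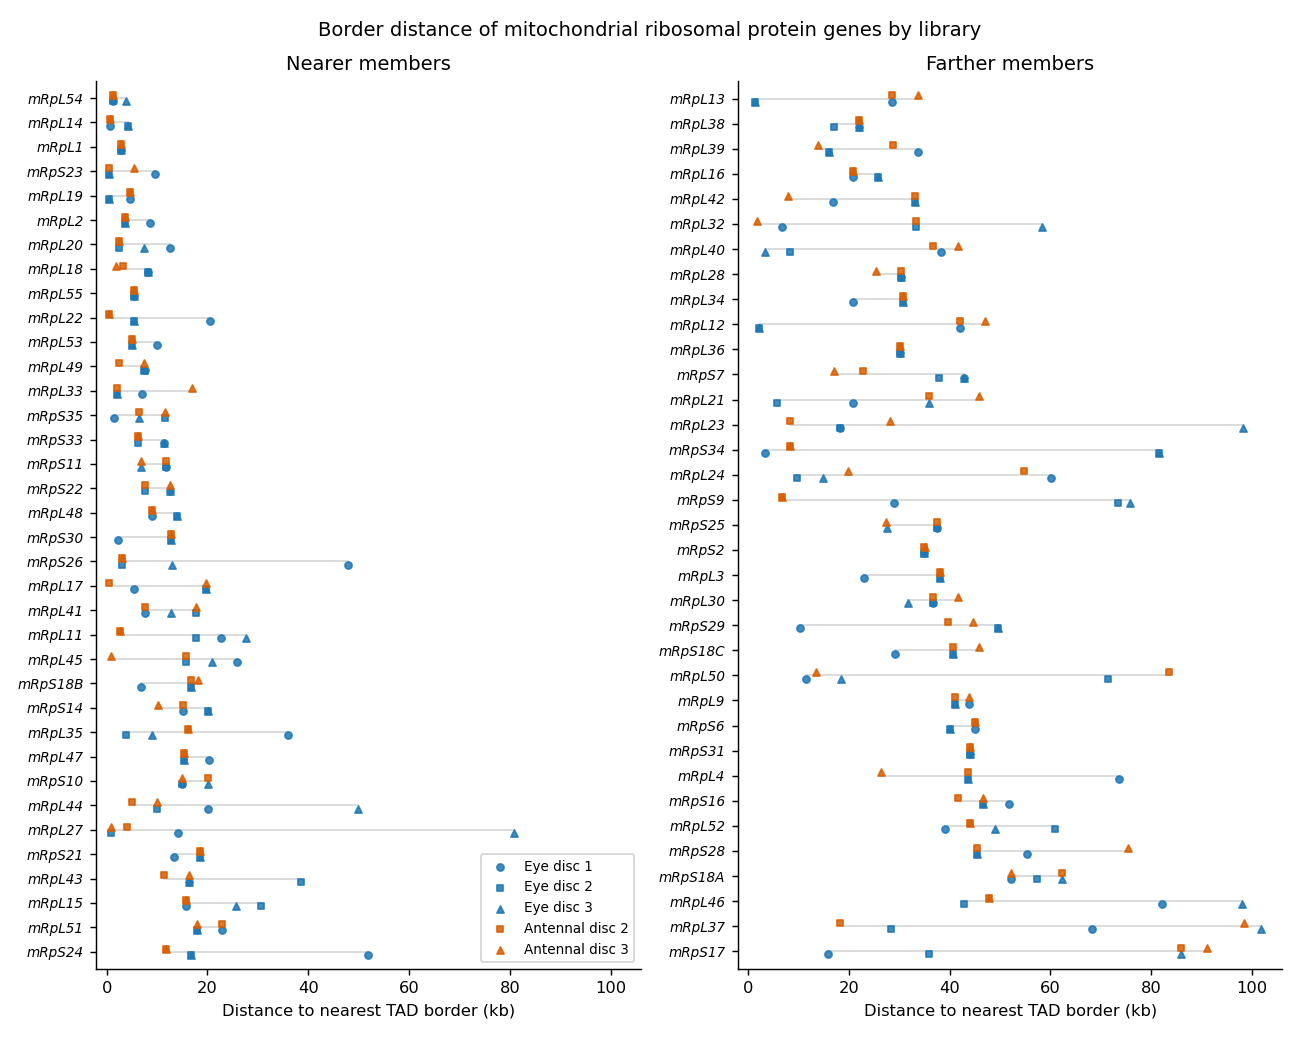
Distance to the nearest TAD border in kb (x axis) of each of the 71 members (y axis, ordered by mean distance over both panels), with 1 symbol per library, eye discs in blue and antennal discs in orange, and a grey line from the lowest to the highest value. The spread over libraries differs widely, from 0 kb for *mRpL1* to 90 kb for *mRpL23*.

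The 6 farthest members lay in TAD interiors and mostly varied widely between libraries. *mRpS17* (2R:24173665-24174441), for a protein that binds ribosomal RNA early in assembly in bacteria, lay 15.9, 35.9 and 85.9 kb from a border in eye discs and 85.9 and 90.9 kb in antennal discs, the largest mean at 67.2 kb. *mRpL37* (3R:10782563-10784092) lay 68.3, 28.3 and 102 kb away in eye discs and 18.3 and 98.3 kb in antennal discs. In *mRpL37*, whose protein is specific to mitochondria, replicates of a tissue differed far more than the tissue means of 66.1 and 58.3 kb.

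*mRpL46* (3L:1777439-1778347), for another protein specific to mitochondria, lay 82.1, 42.9 and 97.9 kb away in eye discs and 47.9 kb in both antennal libraries. *mRpS28* (2R:18614210-18615018) lay 55.4, 45.4 and 45.4 kb away and then 45.4 and 75.4 kb. *mRpL52* (2R:7673721-7674400) lay 39.1, 60.9 and 49.1 kb away and then 44.1 kb in both antennal libraries. All 3 overlapped between tissues.

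*mRpS18A* (3R:8561917-8562593) was far from borders in every library, at 52.3, 57.3 and 62.3 kb in eye discs and 62.3 and 52.3 kb in antennal discs. It is 1 of 3 genes for versions of protein S18, and in mammals a single mitochondrial ribosome is known to hold several of these. The other versions differed from it, with mean distances of 15.5 kb for *mRpS18B* (6.79 to 18.2 kb) and 40.1 kb for *mRpS18C* (29.3 to 45.7 kb).

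Proteins that work at one place in the ribosome came from genes at unlike distances. Around the peptidyl transferase centre, where peptide bonds form, *mRpL2* had a mean of 4.39 kb, *mRpL27* of 17.2 kb (0.883 to 80.9 kb), *mRpL16* of 22.5 kb (20.9 to 25.9 kb) and *mRpL3* of 35.5 kb (23.0 to 38.0 kb). *mRpL4*, listed in the same group, had a mean of 44.3 kb (26.4 to 73.6 kb). The place of its protein in the ribosome was not checked. Along the tunnel through which new proteins leave, *mRpL22* had 5.53 kb, *mRpL45* 14.6 kb (0.841 to 25.8 kb), *mRpL23* 31.6 kb (8.27 to 98.3 kb) and *mRpL24* 32.8 kb (9.81 to 60.2 kb). In the stalk that recruits translation factors, *mRpL11* had 12.7 kb and *mRpL12* 30.0 kb. Each of the 3 groups held members nearer and members farther than the protein-coding median of 24.9 kb.

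Over libraries, the median range of a member's distance was 10.7 kb, against 15 kb over all genes. It was at most 5 kb in 22 members (31.0%, against 27.0% of all genes) and over 20 kb in 28 (39.4%, against 43.5%). It was 0 in 4 of the 71 members, *mRpL1*, *mRpL36*, *mRpL55* and *mRpS31*, and in 1302 of the 17348 genes in all. *mRpL55* lay 5.35 kb from its border at 19100000 on 3R, beyond *ATPsynD* for an ATP synthase subunit, in all 7 lists. *mRpL36* kept 30.1 kb and *mRpS31* 44.1 kb in all 7 lists, the latter from a border in *Diap1*, which encodes an inhibitor of cell death. For 35 of 71 members (49.3%) the nearest border was not on the same side in every library. No share over all genes was taken beside this count.

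The tissues were compared with limma on log2(distance + 5 kb) over all 17348 genes, eye minus antennal. Of all genes, 1.55% were called farther from a border in eye discs and 0.669% farther in antennal discs, 2.22% in all, at an adjusted p under 0.05. Among the members, 1 of 71 was called farther in eye discs and 0 farther in antennal discs. At an unadjusted p under 0.05 there were 4 members, against 7.67% of all genes. Distances move in steps of a bin, and 166 of the 385 called genes had equal values within each tissue.

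*mRpL11* (3R:14511838-14512691) was the called member. Its protein belongs to the base of the stalk where translation factors dock. It lay 22.7, 17.7 and 27.7 kb from a border in eye discs and 2.74 kb in both antennal libraries. The groups did not overlap, and every eye value exceeded the antennal values by at least 15 kb. The log2 difference was 1.83 ± 0.18 (SE; limma adjusted p = 0.0451). The right border was at 14535000, 14530000 and 14540000 in eye discs and at 14515000 in antennal discs, all inside *Pde6*, a cyclic GMP phosphodiesterase gene. The pooled lists gave 17.7 and 2.74 kb. The log2 difference stayed between 1.70 and 1.96 when a library was left out, but the call was lost in most of these fits: limma's adjusted p was 0.0977 without eye disc replicate 1, 0.0871 without eye disc replicate 3, 0.108 without antennal disc replicate 2, 0.152 without antennal disc replicate 3 and 0.328 with the replicate number as a block. Without eye disc replicate 1 and antennal disc replicate 3 together it was 0.493, and with a pseudocount of 10 kb 0.0599.

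*mRpS9* (3R:7889277-7902667), the longest member, encodes a protein that reaches the decoding site in bacteria. It lay 29.0, 73.3 and 75.8 kb from a border in eye discs and 6.70 kb in both antennal libraries. The log2 difference, the largest among the members, was 2.36 ± 0.48 (SE; limma adjusted p = 0.236), so it did not pass. It was 2.77 without eye disc replicate 1 (limma adjusted p = 0.000905) and 2.77 without antennal disc replicate 3 as well, beside 1 antennal library. In the first of these fits the antennal values were equal and the eye values were 73.3 and 75.8 kb. That p-value thus rests on little spread. The log2 difference was 2.36 without antennal disc replicate 2 and 2.36 without antennal disc replicate 3. Without eye disc replicate 2 the limma adjusted p was 0.412, and without eye disc replicate 3 it was 0.482. Both antennal libraries had a border at 7890000, where *mRpS9* overlaps *ArgRS-m*, for the mitochondrial arginyl-tRNA synthetase. The pooled antennal list lacked that border and gave 24.0 kb, against 73.3 kb in the pooled eye list. In eye disc replicate 1 the nearest border was in *dsx*, the sex determination gene, and in eye disc replicates 2 and 3 beyond it in *CD98hc*.

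In 6 of 71 members (8.45%) every eye value exceeded both antennal values, against 7.59% of all genes. In 0 members did every antennal value exceed all eye values, against 5.35% of all genes. The count farther in eye discs was thus near the background. Beside *mRpL11* and *mRpS9* it held *mRpS7*, *mRpL18*, *mRpS24* and *mRpL22*. In the cytosolic set the counts were 3 and 5 of 88. Without eye disc replicate 1 and antennal disc replicate 3, 22 members were farther in eye discs (23.7% of all genes) and 10 in antennal discs (18.4%).

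*mRpS7*, whose bacterial counterpart starts assembly of the head of the small subunit, lay 42.8, 37.8 and 42.8 kb from a border in eye discs and 22.8 and 17.2 kb in antennal discs (log2 difference 0.89, limma adjusted p = 0.114). The TAD of *mRpS7* also holds *Cdk1*, for the mitotic kinase, and *da*, for a transcription factor of the basic helix-loop-helix family in every list, but in antennal disc replicate 3 a border at 10370000 left *mRpS7* in a TAD with 15 protein-coding genes rather than up to 71. *mRpL18* lay 8.20 kb away in all 3 eye libraries and 3.20 and 1.80 kb in antennal discs (0.82, limma adjusted p = 0.0668). That is a shift of the border by 1 bin in antennal disc replicate 2, and to the other side of the gene in antennal disc replicate 3. The log2 difference of *mRpS7* was 1.06 without antennal disc replicate 2, where 1 antennal library remained. That of *mRpL18* was 0.96 without antennal disc replicate 2 and 0.69 without antennal disc replicate 3. It was 0.69 without eye disc replicate 1 and antennal disc replicate 3. In these fits of *mRpL18* the eye values were equal and 1 antennal library remained, so no spread was left.

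*mRpL22* (X:16783933-16785092) lay 20.5, 5.49 and 5.49 kb from a border in eye discs and 0.580 kb in both antennal libraries (log2 difference 1.34, limma adjusted p = 0.713). The antennal border at 16785000 was inside the gene, and the eye borders lay 1 bin or, in eye disc replicate 1, 4 bins to its right. *mRpS24* lay 51.8, 16.8 and 16.8 kb away in eye discs and 11.8 kb in both antennal libraries (0.84, limma adjusted p = 0.713). Apart from eye disc replicate 1, the difference was again 1 bin. Without that library the log2 differences were 0.91 and 0.38 (limma adjusted p = 0.000905 and 0.00272). The values left were then equal within each tissue, so these p-values rest on no spread between replicates of the gene itself. Without antennal disc replicate 3 as well, the log2 differences were the same, with equal eye values beside 1 antennal library.

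**Figure D4:**
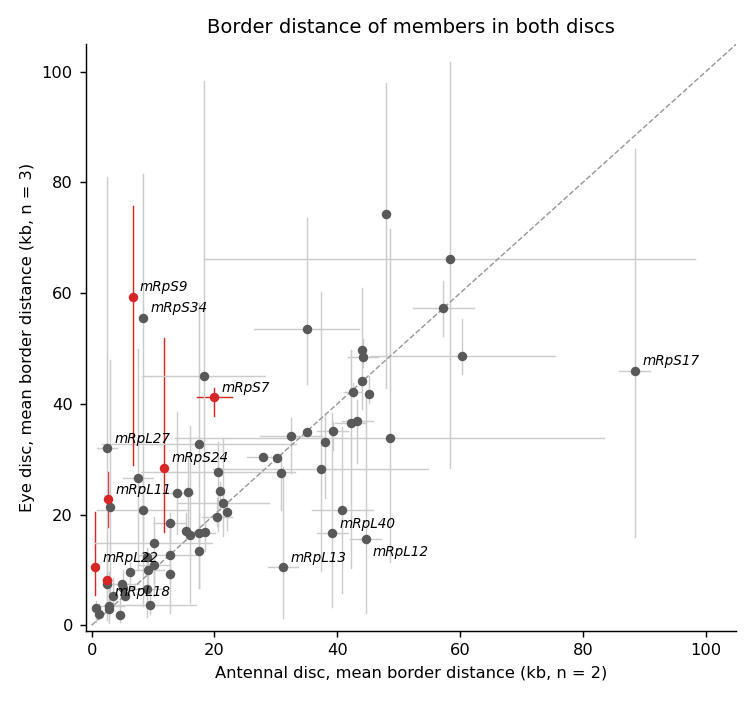
Mean distance to the nearest TAD border in eye discs (y axis, kb, n = 3) against antennal discs (x axis, kb, n = 2), with 1 point per member, bars from the lowest to the highest library and a dashed line of equal distance. Red points are the 6 members whose eye values all exceed both antennal values, among them *mRpL11* (22.7 against 2.74 kb) and *mRpS9* (59.4 against 6.70 kb), and *mRpL12*, *mRpL13*, *mRpL40* and *mRpS17* lie below the line.

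The 4 members with the lowest log2 difference were farther from borders in antennal discs on average, but the tissues overlapped in each. *mRpL12*, for the factor-binding protein of the stalk, lay 42.1, 2.19 and 2.19 kb away in eye discs and 42.1 and 47.1 kb in antennal discs (-1.88, limma adjusted p = 0.713). In the pooled lists it lay 2.19 kb away in both tissues. *mRpL13*, beside the homeobox gene *tup*, lay 28.6, 1.36 and 1.36 kb away in eye discs and 28.6 and 33.6 kb in antennal discs (-1.70, limma adjusted p = 0.713). For *mRpL13* the pooled lists gave 33.6 kb in both tissues. In both genes eye disc replicate 1 had the value of antennal disc replicate 2, without the near border that eye disc replicates 2 and 3 shared. Without eye disc replicate 1 the log2 differences were -2.78 for *mRpL12* and -2.50 for *mRpL13* (limma adjusted p = 0.00401 and 0.0084). The eye values left in each gene were then equal, so the only spread within a tissue was between the antennal libraries. Without antennal disc replicate 3 as well the log2 differences were -2.71 and -2.40, with equal eye values beside 1 antennal library and so no spread.

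*mRpL40*, for a large subunit protein without a bacterial counterpart, lay 38.3, 8.34 and 3.34 kb from a border in eye discs and 36.7 and 41.7 kb in antennal discs (-1.38, limma adjusted p = 0.713). The eye borders, at 11370000, 11400000 and 11405000, were all within *pros*, which encodes a homeodomain factor of R7 photoreceptors and cone cells in the developing eye. In antennal discs the nearest border lay on the other side, at 11445000 and 11450000, with 14 annotated genes in between. The pooled lists gave 8.34 kb in eye and 41.7 kb in antennal discs. *mRpS17*, described above, made the fourth (-1.13, limma adjusted p = 0.713).

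At the other end of the order, *mRpS34* and *mRpL27* followed *mRpS9* and *mRpL11* but varied within eye discs. *mRpS34*, needed in mice for a stable small subunit, lay 3.43, 81.6 and 81.6 kb away in eye discs and 8.43 kb in both antennal libraries (1.57, limma adjusted p = 0.762). *mRpL27*, whose bacterial counterpart reaches the peptidyl transferase centre, lay 14.1, 0.883 and 80.9 kb away and then 4.12 and 0.883 kb (1.54, limma adjusted p = 0.777). Eye disc replicate 1 held the border near *mRpS34* that both antennal libraries held within 1 bin. Without that library the log2 difference of *mRpS34* was 2.69 (limma adjusted p = 0.000387), with equal values within each tissue and so no spread. Without antennal disc replicate 3 as well it was 2.69, with equal eye values beside 1 antennal library.

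Between the pooled lists, 6 members (8.45%) were over 10 kb farther in eye discs, against 13.1% of all genes, and 7 (9.86%) over 10 kb farther in antennal discs, against 8.06%. The distances lay within 10 kb of each other in 58 members (81.7%), which include 36 with equal distances. No share over all genes was taken beside the count of equal distances. Farther in the pooled eye list were *mRpS34* by 73.1 kb, *mRpL46* by 55 kb, *mRpS9* by 49.3 kb, *mRpS7* by 20 kb, *mRpL4* by 17.2 kb and *mRpL11* by 15 kb. Eye minus antennal differences the other way were -70 kb for *mRpL50*, -50 kb for *mRpS17*, -40 kb for *mRpL24* and -33.3 kb for *mRpL40*. Those of *mRpS18B*, *mRpL35* and *mRpL23* were -15, -12.1 and -11.5 kb. Each tissue has 1 pooled list, so these differences have no replicate check.

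Host TADs of members were somewhat narrower than those of protein-coding genes and held about as many genes. In the 70 members with a TAD in every library, the median width was 103 ± 2.89 kb in eye discs (SD, n = 3) and 101 ± 5.30 kb in antennal discs (SD, n = 2). For protein-coding genes it was 127 ± 14.4 and 120 ± 7.07 kb. The TADs held a median of 19 ± 1 protein-coding genes in eye discs and 18.5 ± 0.707 in antennal discs, against 18 ± 1.73 and 17.5 ± 0.707. *mRpL35* fell into a gap between TADs in eye disc replicate 2 and in the pooled eye list.

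Both ends of the host TAD agreed within 1 bin over the 5 libraries for 4 members (5.71%), against 6.21% of all genes. These were *mRpL48*, *mRpL51*, *mRpS11* and *mRpS31*. Only 1 end agreed for 25 members (35.7%, against 35.6% of all genes) and neither for 41 (58.6%, against 58.2%). Both ends agreed over the 3 eye libraries for 9 (12.9%, against 17.3% of all genes) and over both antennal libraries for 34 (48.6%, against 41.5%). These counts are not alike, since agreement over 3 libraries is harder to reach than over 2. Between the pooled lists both ends agreed for 39 (55.7%, against 48.3% of all genes). In 3 members (4.29%, against 3.46%) they agreed within each tissue but not between tissues.

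**Figure D5:**
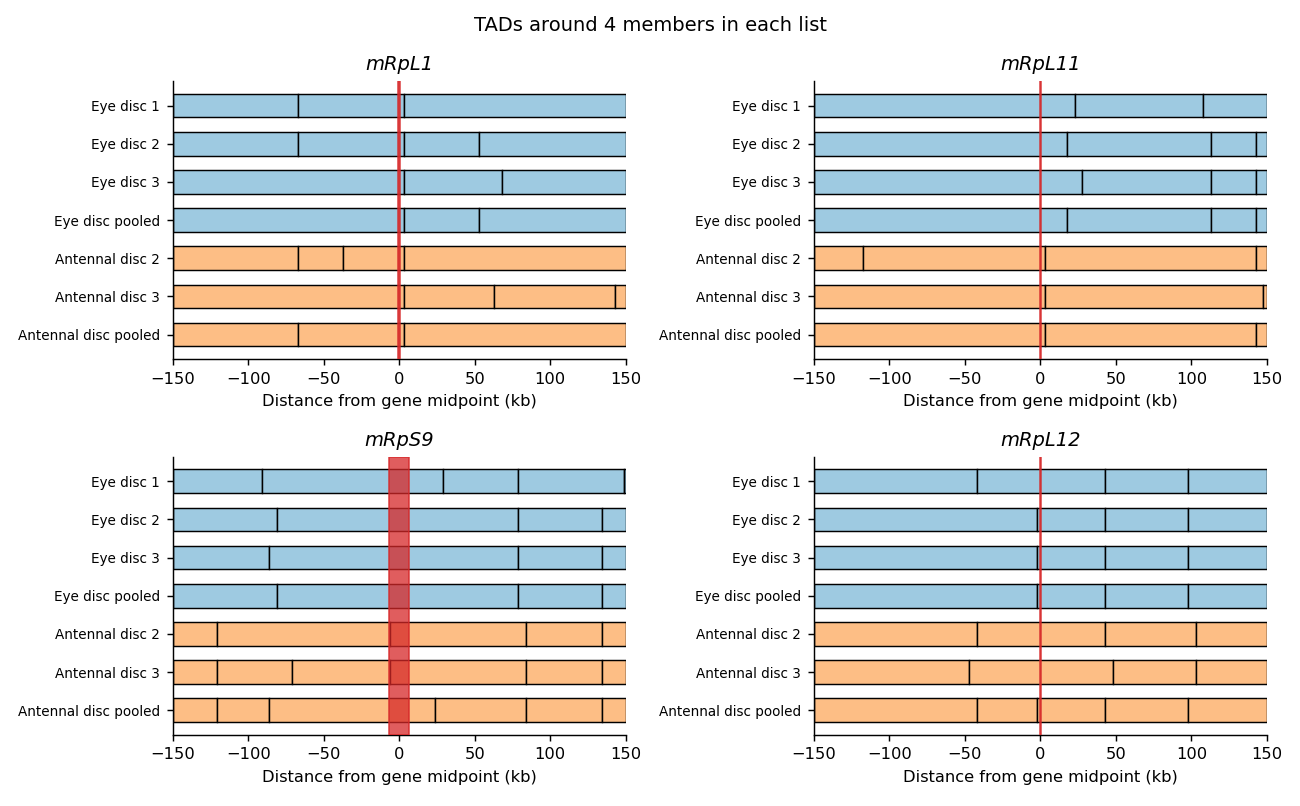
TADs of the 5 libraries and both pooled lists (rows, eye discs in blue and antennal discs in orange) around *mRpL1*, *mRpL11*, *mRpS9* and *mRpL12*, drawn as bars by distance from the gene's midpoint in kb (x axis), with the gene in red. The right border of *mRpL11* lies 2.74 kb away in antennal rows and between 17.7 and 27.7 kb away in eye rows, while *mRpL1* keeps its right border at 2.90 kb in every row.

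TADs with members ranged from narrow to wide. By the median over libraries, those of *mRpL22* (30 to 50 kb) and *mRpS10*, both 40 kb, were the narrowest and that of *mRpS16* (255 to 260 kb) the widest. In single libraries the width ran from 25 kb for *mRpS5* to 335 kb for *mRpL35*. The TAD of *mRpL55* held between 3 and 6 protein-coding genes and that of *mRpS7* between 15 and 71, the member itself included. The TAD of *mRpS16* also held *PheRS-m* and *CysRS-m*, for mitochondrial tRNA synthetases, in every list.

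Members rarely shared a TAD with each other. *mRpL24* and *mRpL28*, 28.6 kb apart on 2L, shared one in all 5 libraries and both pooled lists, and both are large subunit genes. *mRpL28* lay 30.4 kb from a border in each eye library and 30.4 and 25.4 kb in antennal discs, while the left border nearer *mRpL24* moved. *mRpL3* and *mRpS30*, 23.4 kb apart on X, shared a TAD in 4 libraries. In eye disc replicate 1 a border at 15785000 separated them. *mRpS18A* and *mRpL19* shared one in eye disc replicates 2 and 3, and *mRpS2* joined *mRpL24* and *mRpL28* in eye disc replicate 1. *mRpS10* and *mRpL9*, 100 kb apart on 3R, shared none.

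The 35 other genes of mitochondrial gene expression, which include *tko*, *bonsai*, translation factors, 15 mitochondrial tRNA synthetases and the transcription and replication proteins of mitochondrial DNA, had a median distance of 16.7 kb. Per tissue it was 16.1 ± 1.91 kb in eye discs (SD, n = 3) and 14.0 ± 0.151 kb in antennal discs (SD, n = 2). At a border in all 5 libraries were 3 of 35. They were *mtSSB*, for the single-strand binding protein of mitochondrial DNA (mean 1.93 kb), the initiation factor gene *mIF2* (2.50 kb) and the elongation factor gene *mEFTs* (3.25 kb). The farthest were *mIF3* (92.0 kb), for another initiation factor, *ProRS-m* (61.8 kb) and *CysRS-m* (59.4 kb). *tko* had a mean of 9.69 kb and *bonsai* of 37.1 kb. Libraries did not overlap for 2 of the 35 farther in eye discs (7.59% of all genes) and 3 farther in antennal discs (5.35% of all genes). A gene of this list shared a TAD with 7 members in at least 1 library and with 6 members in all 5, and a cytosolic gene with 9 and 7 members. No share over all genes was taken beside these counts of shared TADs.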

How the data were processed

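The deposited files list chromosome, start and end of each TAD, with no scores or contacts, so the unit of each value is a coordinate in bp. The aligner was Bowtie2 2.3.4.2 and the build dm6, per the submitters' processing notes, and the TAD caller is not given in the sources used here. Antennal disc replicate 1 was not used here. Gene positions were those of RefSeq for Release 6, in a table without strand, so transcription starts and promoter sequences were not used.

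Every start or end of a TAD counted as a border, and where adjoining TADs lay up to 5 kb apart the facing pair was merged at its mean. Distances were compared with limma 3.58.1 (lmFit, eBayes, Benjamini-Hochberg) in R 4.3.3 on log2(kb + 5), and tables were made with Python 3.11.15, numpy 2.4.6 and pandas 2.3.3. The fit was tested on simulated data. Host TADs were taken at gene midpoints.

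Members and lists were chosen with earlier results of these data known. Named genes are the 6 nearest and 6 farthest members, the 4 largest and 4 smallest tissue differences, members at a border in every library, called, outside the calls or sharing a TAD, and 4 role groups. Others were named after their values were seen. The alternatives changed the gene position, filter, pseudocount, border definition, tolerance and libraries, and 1 was chosen after seeing the data.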

Additional observations from a re-analysis of the deposited data

How the results depend on the processing

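The alternatives of pseudocount, gene position, filter, gene set and border definition kept the direction of the 12 members whose difference between tissues was followed, those with the largest differences or without overlap. The count of called members was 1 in the fit reported, 0 by limma with a pseudocount of 10 kb (4 at an unadjusted p under 0.05), 0 by limma with the replicate block (14 unadjusted), between 0 and 11 when each library was left out and 19 without eye disc replicate 1 and antennal disc replicate 3, an alternative chosen after seeing the data. The 11 of 71 members came without eye disc replicate 1, where 1487 of 17348 genes were called. Of these, 8 members and 1070 genes had equal values within each tissue. The highest leave-out count over all genes came from another fit, without antennal disc replicate 2. Nearly all of the 19 members had equal eye values beside 1 antennal library, and so no spread. Correlations of deviations were 0.0902 for replicate number 2 and 0.0205 for replicate number 3. With 2 antennal libraries these values cannot settle whether replicate numbers pair the samples. Over all genes the count of 385 became 0 with the replicate block (2214 unadjusted), between 302 and 1756 with a library left out and 4143 without both, of which 4063 had equal values within each tissue. Members whose libraries did not overlap numbered 6 to 14 farther in eye discs and 0 to 11 farther in antennal discs with a library left out (9.62% to 18.6% and 8.32% to 14.6% of all genes), and 22 and 10 without both (23.7% and 18.4%). The median distance of members was 18.8 to 22.1 kb, and their difference from protein-coding genes -5.46 to -2.88 kb, with a library left out, and -2.21 kb from the nearer gene end. Members at a border in every library numbered 0 where the border had to touch the gene, against 1.07% of all genes. There were 10 within 2 bins (14.1%, against 13.3% of all genes) and 13 in the pooled lists (18.3%, against 12.8%). With a library left out there were 4 to 8 (5.63% to 11.3%, against 6.49% to 7.91%), and without both 9 (12.7%, against 9.55%). Host TADs alike in every library numbered 8 within 2 bins (11.4%, against 11.1% of all genes) and 0 with identical ends (0.912% of all genes). They numbered 4 to 11 with a library left out and 17 without both, where no share over all genes was taken. In the pooled lists, 7 members differed by over 20 kb in place of 13 by over 10 kb. At 20 kb no share over all genes was taken. Of the comparisons of single members with an alternative, 145 stayed on their side of the threshold, 16 came past it and 7 lost it. Where 1 antennal library remained, it was assumed to vary like the eye libraries. Counts over fewer libraries rise by construction. Distance from the transcription start was not run, because the gene table has no strand.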
